A study of Mus musculus with 23 samples.

Results

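Keratins are the intermediate filament proteins of epithelial cells, and the 53 protein-coding mouse genes whose symbol is Krt, a number and an optional final letter were followed here among the 36793 genes of the deposited tables. The choice used symbols and gene type alone. Of the 53 genes, 28 encode type I (acidic) and 25 type II (basic) keratins. The type I genes lie on chromosome 11 except Krt18, which lies with the type II genes on chromosome 15. Counts reached at least 10 in some library for 24 keratins, 12 of each type. The other 29 stayed at 8 counts or fewer in every library, and 7 of them had no count at all. Krt74, which the annotation lists as a pseudogene, was left out.

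RNA sequencing covered 23 libraries in 8 groups from 3 mouse models of head and neck cancer. SCCVII is a squamous carcinoma line studied in C3H/HeJ mice. The MEER lines are mouse oropharyngeal epithelial cells transformed with activated Ras, studied in C57/Bl6 mice, with (HPV-positive) or without (HPV-negative) papillomavirus oncogenes. Colonies, labelled as macrophage progenitor colonies, were SCCVII (n = 2) and HPV-negative (n = 3), and grew for 9 days in haematopoietic stem cell medium from sorted macrophages. Macrophages of SCCVII, HPV-positive and HPV-negative tumours (n = 3 each) were sorted for CD45, CD11b and high F4/80 without Gr1, and each library pooled 3 to 4 mice. The SCCVII, HPV-positive and HPV-negative lines (n = 3 each) were sequenced from culture, and each model is a single line. The labels call them aliquots of cultured cells, so p-values between them reflect variation among these libraries that may be technical alone, and viral status, strain and line cannot be told apart.

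A keratin filament is built from a type I and a type II chain in equal amounts, so keratins work as partners. Krt8 and Krt18 form the filament of simple (single-layered) epithelia, where Krt7, Krt19 and Krt20 join them in ducts and linings. Krt5, Krt14 and Krt15 mark the basal layer of stratified epithelia such as skin and oral mucosa, Krt1 and Krt10 the layers above it in skin, and Krt13 and Krt76 those of the mouth. Krt6a, Krt16 and Krt17 are made in hair follicle sheaths and in wounded or proliferating epithelium, and a further group builds the hair shaft and its inner root sheath. Macrophages are known for a vimentin filament in place of keratins.

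The 60 bases before the RefSeq transcription start (GRCm38.p6) are shown for Krt8, Krt18, Krt7, Krt20, Krt10, Krt5, Krt13 and Krt76. These keratins differ in whether and where they hold the motif described here, and they are no groups by level. Krt8 and Krt18 were abundant in all lines, while Krt7 was abundant in the MEER lines and nearly absent from the SCCVII line. Capitals mark ATAAA, the core of many TATA boxes, searched with its reverse complement TTTAT. For Krt8, Krt18 and Krt7 the RefSeq start lies inside the bounds of the GENCODE gene. The stretches are chr15:102004343-102004402 (minus strand) for Krt8, chr15:102028156-102028215 (plus) for Krt18, chr15:101412343-101412402 (plus) for Krt7, chr11:99438154-99438213 (minus) for Krt20, chr11:99389365-99389424 (minus) for Krt10, chr15:101712906-101712965 (minus) for Krt5, chr11:100121567-100121626 (minus) for Krt13 and chr15:101892921-101892980 (minus) for Krt76.
Krt8: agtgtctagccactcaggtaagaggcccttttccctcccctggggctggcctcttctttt
Krt18: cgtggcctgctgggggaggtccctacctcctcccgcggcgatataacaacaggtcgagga
Krt7: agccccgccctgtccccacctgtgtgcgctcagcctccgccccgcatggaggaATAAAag
Krt20: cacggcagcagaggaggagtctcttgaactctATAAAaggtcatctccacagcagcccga
Krt10: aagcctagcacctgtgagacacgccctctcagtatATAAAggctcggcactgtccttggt
Krt5: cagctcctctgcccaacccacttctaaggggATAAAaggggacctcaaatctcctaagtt
Krt13: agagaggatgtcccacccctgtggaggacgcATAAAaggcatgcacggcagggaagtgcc
Krt76: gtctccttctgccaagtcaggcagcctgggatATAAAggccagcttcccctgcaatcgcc
The match began at base -28 for Krt20 and Krt76, -25 for Krt10 and -29 for Krt5 and Krt13, but at -7 for Krt7, counted back from the start. No match lay in these windows of Krt8 and Krt18. Of the 36 keratins with a start region in the RefSeq table, 23 (63.9%) held ATAAA or TTTAT in these 60 bases, against 12.2% of 27025 start regions of all genes. A GC box (GGGCGG, or CCGCCC on the other strand) lay within 250 bases before the start of 2 of the 36 (5.56%), against 32.9% of all. These are matches of letters in a window and nothing about a factor follows from them.

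Some libraries stood apart from the others of their group. Depth was 26848759 to 47609481 counts per library. The summed level of 10 macrophage markers, in TPM (a share of all transcripts that corrects for gene length), was 1538 and 16001 in SCCVII colonies and 133 to 18328 in HPV-negative colonies, against 12164 to 27731 in the 9 macrophage libraries and 29.3 to 64.5 in the 9 line libraries. HPV-negative colony libraries 2 and 3 held the macrophage receptor gene Csf1r at 2.43 and 0.310 TPM and C1qa at 0, whereas library 1 held them at 288 and 170.2 TPM. In the SCCVII line, the summed level of 10 epithelial markers was at most 1.21 TPM, with Perp and Epcam at 0, and the collagen gene Col1a2 stood at 449 to 487 TPM. The same 10 epithelial markers summed to 3.68 and 16.3 TPM in SCCVII colonies and 98.7 to 272 TPM in HPV-negative colonies, to 19.0 to 152 TPM in macrophages and to 231 to 285 TPM in the MEER lines. These sums rest on different genes. In HPV-positive macrophages Cdh1 alone gave 109 to 148 TPM and Perp at most 0.940 TPM, while in the MEER lines Perp gave 177 to 279 TPM and Cdh1 0.570 to 17.9 TPM. Fibroblast markers summed to 1098 to 1146 TPM in SCCVII colonies and 203 to 559 TPM in HPV-negative colonies, against 5.85 to 37.3 TPM in macrophages, 846 to 919.5 TPM in the SCCVII line and 23.7 to 47.2 TPM in the HPV-negative line. Neutrophil markers summed to 1214 TPM in HPV-negative colony library 1, against at most 8.45 TPM in libraries 2 and 3. HPV-negative macrophage library 4 held Perp at 10.5 TPM and Col1a1 at 8.49 TPM, against at most 0.750 and 1.24 TPM in libraries 1 and 2.

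**Figure D1:**
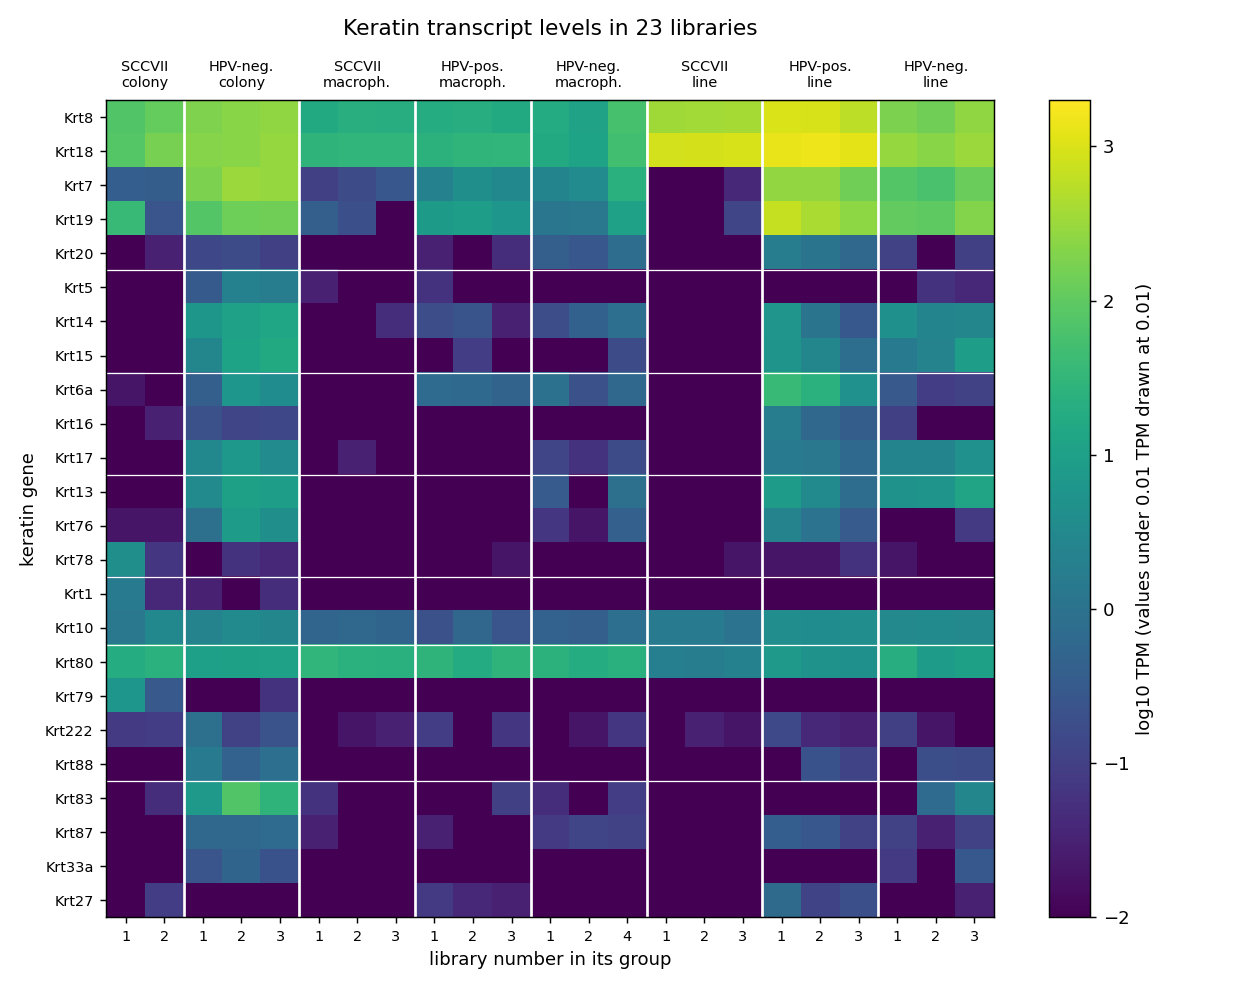
Levels of the 24 keratins with at least 10 counts in a library (rows, grouped by class) in the 23 libraries (columns, by group), as log10 TPM with values under 0.01 TPM drawn at 0.01. Krt8 and Krt18 are the brightest rows of the 9 line libraries, and 4 keratins reach 1 TPM in the SCCVII line.

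Keratin transcripts together made up 1200.3 to 1354 TPM in the SCCVII line, 2233 to 3356 TPM in the HPV-positive line and 544 to 964 TPM in the HPV-negative line. Krt8 and Krt18 accounted for 99.7% or more of this sum in every SCCVII library, for 69.2% to 81.4% in the HPV-positive line and for 60.8% to 68.1% in the HPV-negative line. Krt7 and Krt19 made up at most 0.0126% in the SCCVII line, 17.7% to 28.4% in the HPV-positive line and 26.3% to 34.4% in the HPV-negative line. The SCCVII keratin set was thus nearly a single partnership, while the MEER lines carried at least 7 keratins at 1 TPM or more in each library and SCCVII 4. The type I partner was in excess in all 9 line libraries, with a Krt18 to Krt8 ratio of TPM values of 2.43 to 2.53 in the SCCVII line, 1.296 to 2.06 in the HPV-positive line and 1.21 to 1.61 in the HPV-negative line. About 22.0% of the 75-base windows of Krt8 transcripts also occur in its pseudogene Krt8-ps. No gene of that symbol was among those quantified, so how such reads were assigned is not known. The Krt8 level is thus less certain than that of Krt18, which shares no window.

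The comparison of HPV-positive with HPV-negative MEER cells asks what goes with viral status, with each status represented here by 1 line. The partners Krt8 and Krt18, together with Krt7, Krt19 and Krt20, were higher in the HPV-positive line, and so were Krt6a and Krt76. Krt17 and Krt80 were lower. Of the 53 keratins 13 passed the low-count filter, of which 7 were called higher and 2 lower at an adjusted p under 0.05 (edgeR quasi-likelihood test, Benjamini-Hochberg over all genes). Krt6a, Krt20 and Krt76 passed the filter through the HPV-positive line alone. The count of 7, and the calls and p-values of Krt6a, Krt20 and Krt76, are therefore a description. Of all 14396 genes tested 47% were called, 23.2% higher and 23.9% lower. Levels are given as CPM, the share of counts after TMM scaling of library size. Each log2 change carries an approximate standard error (SE), its absolute value divided by the square root of the F statistic of the test. This SE was derived from the test rather than estimated apart, so it is rough where counts are few. All line libraries, SCCVII included, shared one estimate of the spread. SCCVII line replicates differed less, with a chi-square per gene between replicates of 3.23 to 5.53, against 40.7 to 93.8 within the MEER lines. The SE and p-values between the MEER lines may therefore be too small.

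Krt8 stood at 796, 773 and 517 CPM in the HPV-positive line and at 160.0, 134 and 240.4 CPM in the HPV-negative line. Krt18 stood at 791, 927 and 816 CPM in the HPV-positive line and at 195, 166 and 223 CPM in the HPV-negative line. The ranges of the groups did not overlap for either partner. The log2 changes were 1.96 ± 0.23 for Krt8 and 2.11 ± 0.13 for Krt18 (edgeR quasi-likelihood, adjusted p = 7.7e-05 and 1e-06), a 3.89-fold and a 4.31-fold higher level.

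Krt19, the smallest keratin and a chain of ductal epithelium, stood at 379, 234 and 149 CPM in the HPV-positive line and at 61.9, 63.6 and 133 CPM in the HPV-negative line. Its lowest HPV-positive library was close to the highest HPV-negative one, and the log2 change was 1.56 ± 0.37 (edgeR adjusted p = 0.0056). Krt7, its type II companion in ducts, stood at 257, 251 and 141 CPM in the HPV-positive line and at 76.9, 65.6 and 126 CPM in the HPV-negative line. Its log2 change was 1.27 ± 0.28 (edgeR adjusted p = 0.0041). HPV-negative library 3 was the highest of its group for both genes and HPV-positive library 3 the lowest of its own. Neither gene was called when all 23 libraries shared the spread, with nearly the same log2 changes of 1.56 for Krt19 and 1.27 for Krt7. Krt20, a keratin of gut and urinary epithelium, was far scarcer, at 1.47, 0.975 and 0.554 CPM in the HPV-positive line and 0.0988, 0 and 0.0980 CPM in the HPV-negative line, a log2 change of 3.84 ± 0.75 (edgeR adjusted p = 0.0036).

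Krt6a, a wound and hair sheath keratin, had the widest gap between the MEER lines. It stood at 38.5, 24.8 and 5.21 CPM in the HPV-positive line and at 0.329, 0.105 and 0.123 CPM in the HPV-negative line. All HPV-positive libraries lay above all HPV-negative ones, although the HPV-positive libraries themselves differed several-fold. The log2 change was 6.94 ± 0.87 (edgeR adjusted p = 0.00034), and it was 6.32 without HPV-positive line library 1 and 7.53 without HPV-negative line library 1. Of its 75-base windows 38.6% also occur in near copies, mostly Krt6b, which had 6.85 counts at most in a library, so the split between them is uncertain. Krt16, its type I partner, was at 1.16, 0.443 and 0.268 CPM in the HPV-positive line and at 0.0728, 0 and 0 CPM in the HPV-negative line, and did not pass the low-count filter. Krt76, a keratin of the hard palate, stood at 2.40, 1.09 and 0.378 CPM in the HPV-positive line and at 0, 0 and 0.0980 CPM in the HPV-negative line. Its log2 change was 4.99 ± 1.07 (edgeR adjusted p = 0.0056), and the value without HPV-negative line library 3, which held all 4 counts of its group, was 8.48, and 4.16 without HPV-positive line library 1.

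Krt17, another wound and follicle keratin, went the other way from Krt6a, at 1.02, 0.933 and 0.478 CPM in the HPV-positive line and 1.85, 2.01 and 3.70 CPM in the HPV-negative line. Its log2 change was -1.64 ± 0.44 (edgeR adjusted p = 0.015), and it was no longer called without HPV-negative line library 3, at -1.24. Krt80, a type II keratin of differentiating epithelia, stood at 5.37, 4.19 and 3.95 CPM in the HPV-positive line and at 17.3, 7.90 and 9.16 CPM in the HPV-negative line, a log2 change of -1.35 ± 0.29 (edgeR adjusted p = 0.0037). The groups did not overlap for either gene.

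Among the remaining keratins tested, the basal Krt14 and Krt15 and the oral Krt13 varied most between libraries of the same line. Krt14 stood at 4.31, 0.831 and 0.235 CPM in the HPV-positive line and at 3.21, 2.24 and 2.08 CPM in the HPV-negative line. Krt15 stood at 4.08, 1.78 and 0.478 CPM in the HPV-positive line and at 1.02, 2.13 and 6.62 CPM in the HPV-negative line, and Krt13 at 3.66, 1.40 and 0.554 CPM in the HPV-positive line against 2.93, 3.41 and 7.64 CPM in the HPV-negative line. In all 3 genes HPV-positive library 1 was the highest of its group and library 3 the lowest. The same order held for Krt6a, Krt7, Krt8, Krt16, Krt17, Krt19, Krt20, Krt76 and Krt80, but not for Krt10 and Krt18. The log2 changes of -0.49 ± 0.84 (Krt14), -0.63 ± 0.82 (Krt15) and -1.32 ± 0.66 (Krt13) did not pass the test (edgeR adjusted p = 0.66, 0.56 and 0.13). Krt10, the skin suprabasal type I chain, was even, at 3.72, 3.67 and 3.95 CPM in the HPV-positive line and 3.16, 3.88 and 3.26 CPM in the HPV-negative line (log2 change 0.13 ± 0.23, edgeR adjusted p = 0.67). Krt5, the usual partner of Krt14, had no count in the HPV-positive line and 4.41 counts over the 3 HPV-negative line libraries.

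**Figure D2:**
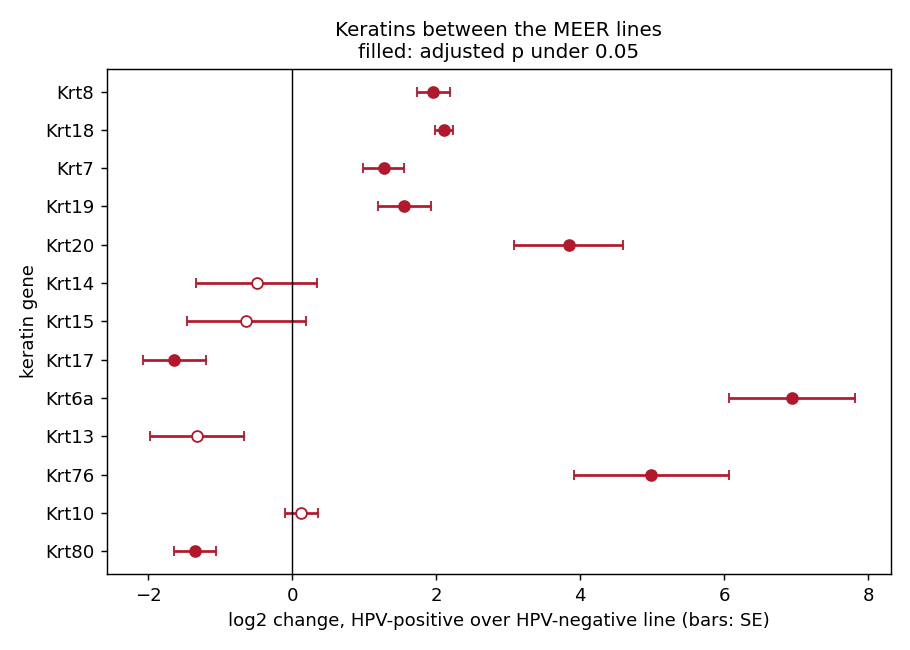
Log2 change of the 13 keratins tested between lines, HPV-positive over HPV-negative, on the x axis, with bars for the SE and filled points for an adjusted p under 0.05 (n = 3 aliquots each). Krt6a at 6.94 lies farthest right and Krt17 at -1.64 farthest left.

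The SCCVII line differed from both MEER lines in which keratins it had at all. Against the HPV-negative line, 2 of the 13 tested keratins were higher and 8 lower, with 58.8% of all tested genes called (27.2% higher, 31.6% lower). Against the HPV-positive line the 13 tested were lower, with 64% of all genes called (30% higher, 34.1% lower). Both sets share the SCCVII libraries. Krt7, Krt13, Krt14, Krt15, Krt17, Krt19, Krt6a, Krt20 and Krt76 were nearly or wholly absent from the SCCVII line. They passed the low-count filter through MEER libraries alone. The counts of lower keratins, and the calls and p-values of these genes, are therefore a description. Krt18 stood at 655, 695 and 726 CPM and Krt8 at 352, 367 and 374 CPM in the SCCVII line, between the 2 MEER lines. Over the HPV-negative line, Krt18 was higher by a log2 of 1.73 ± 0.12 and Krt8 by 0.94 ± 0.22 (edgeR adjusted p = 1.3e-06 and 0.0042). Over the HPV-positive line, Krt8 had a log2 change of -1.02 ± 0.22 (edgeR adjusted p = 0.0022). Krt18 had one of -0.37 ± 0.12 (edgeR adjusted p = 0.02), which was not called when all 23 libraries shared the spread (-0.29), nor without HPV-positive library 2 (-0.30), SCCVII library 1 (-0.33) or SCCVII library 2 (-0.37).

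Krt7 and Krt19 were nearly absent from the SCCVII line. Its 3 libraries held 1, 0 and 2 counts of Krt7, against 2252 to 8767 counts in the 6 MEER line libraries, and 0, 0 and 1 counts of Krt19, against 1881 to 12611. Both were called lower against the HPV-positive line (edgeR adjusted p = 4e-08 for Krt7 and 2e-07 for Krt19) and against the HPV-negative line (1.3e-07 and 6.9e-07), and no fold is given against so few counts. Krt13, Krt14, Krt15 and Krt17 had no count in the SCCVII line, so that each fold is a bound against 3 counts summed over the group. Against the HPV-negative line Krt13 was at least 152-fold lower, Krt15 at least 106-fold, Krt17 at least 82.1-fold and Krt14 at least 81.7-fold (edgeR adjusted p = 0.00032, 0.0017, 3.5e-05 and 0.0021). Against the HPV-positive line Krt6a was at least 744-fold lower, Krt20 at least 32.5-fold and Krt76 at least 42.0-fold (edgeR adjusted p = 7.8e-05, 0.00043 and 0.0015). Those folds are bounds, and the fitted log2 changes, which depend on the prior count, were farther from 0. Without HPV-positive line library 1 the fitted changes were -12.05 for Krt6a, -7.69 for Krt76, -8.11 for Krt13, -7.22 for Krt14 and -8.31 for Krt15, and without HPV-negative line library 3 they were -9.77 for Krt13 and -8.77 for Krt15, all still called. Krt6a, Krt20 and Krt76 also had no SCCVII count, but the HPV-negative line held so few that they were not called against it. Krt10 was lower at 1.82, 1.90 and 1.18 CPM in the SCCVII line, with log2 changes of -1.29 ± 0.24 against the HPV-positive and -1.16 ± 0.24 against the HPV-negative line (edgeR adjusted p = 0.00079 and 0.0018). Krt80 was lower at 1.88, 1.68 and 2.04 CPM in the SCCVII line, with log2 changes of -1.36 ± 0.31 and -2.71 ± 0.31 against the same lines (edgeR adjusted p = 0.0029 and 4e-05).

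The proteins that tie keratin filaments to cell junctions were read from a list of 18 genes, 16 of them tested between lines. In the HPV-positive over the HPV-negative line 10 were higher and none lower, with a median log2 change of 0.84 beside -0.01 over all genes, of which 23.2% were called higher and 23.9% lower. Dsp, the desmoplakin that anchors keratin to desmosomes, stood at 85.7 ± 10.2 CPM in the HPV-positive and 10.1 ± 5.198 CPM in the HPV-negative line (SD, n = 3 each), and the largest called rises were Evpl (3.65) and Pkp3 (3.41 on the log2 scale). In the SCCVII line Dsp had no count. Over their own lines, 2 linkers were higher and 11 lower in SCCVII macrophages, 0 and 13 in HPV-positive macrophages and 1 and 9 in HPV-negative macrophages, of 16 tested, where 73%, 78.8% and 76.1% of all genes were called. Of the 16, the SCCVII line had 1 higher (Dst) and 8 lower against the HPV-positive line, with Dsp and Pkp1 the largest falls (median -0.57 beside -0.05, with 64% of all genes called), and 5 higher and 6 lower against the HPV-negative line (median 0.09 beside -0.06, with 58.8% of all genes called). The plakophilins Pkp3 (2.99) and Pkp2 (1.14) were its largest rises against the HPV-negative line. Of 13 non-keratin intermediate filament genes, 9 were tested. Vim, which encodes vimentin, did not pass the test between any 2 lines, at 2318 ± 109.9 CPM in the SCCVII line, 2414 ± 539.8 CPM in the HPV-positive line and 1939.8 ± 344 CPM in the HPV-negative line (SD, n = 3 each). Ina, a neuronal filament gene, stood at 19.5 ± 1.34 CPM in the HPV-positive line and at 0 in all HPV-negative libraries. Nes, which encodes nestin, stood at 99.4 ± 1.46 CPM in the SCCVII line, 98.5 ± 17.3 CPM in the HPV-positive line and 1.71 ± 1.12 CPM in the HPV-negative line.

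In sorted macrophages keratin transcripts were low but present. The keratin sum was 75.4 to 77.7 TPM in SCCVII macrophages, 82.0 to 85.3 TPM in HPV-positive macrophages, and 66.9, 49.1 and 168 TPM in HPV-negative macrophage libraries 1, 2 and 4. Krt8 stood at 17.7, 24.1 and 23.0 CPM in SCCVII macrophages, at 26.1, 27.3 and 22.0 CPM in HPV-positive macrophages and at 20.8, 13.4 and 59.0 CPM in HPV-negative macrophages. Krt18 stood at 23.2, 26.6 and 27.2 CPM in SCCVII macrophages, 26.8, 29.8 and 31.6 CPM in HPV-positive macrophages and 14.4, 10.6 and 39.8 CPM in HPV-negative macrophages. Neither partner was called between macrophage groups, and in each the HPV-negative library 4 was the highest of all 9. Without that library Krt18 was called higher in SCCVII than in HPV-negative macrophages, at 1.03. In a bulk sample, fewer cells of a type and less RNA per cell cannot be told apart.

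Krt7, Krt19 and Krt6a were lower in SCCVII macrophages than in both MEER groups. Krt7 stood at 0.240, 0.132 and 0.377 CPM in SCCVII macrophages, at 5.90, 7.63 and 5.92 CPM in HPV-positive macrophages and at 4.21, 5.20 and 30.7 CPM in HPV-negative macrophages. Krt19 stood at 0.274, 0.165 and 0 CPM in SCCVII macrophages, at 7.28, 8.20 and 5.26 CPM in HPV-positive macrophages and at 0.972, 1.25 and 8.51 CPM in HPV-negative macrophages. No SCCVII library reached a MEER library for these genes, and Krt6a had no count in SCCVII macrophages, 1.19, 1.08 and 0.824 CPM in HPV-positive macrophages and 1.36, 0.311 and 0.836 CPM in HPV-negative macrophages. Of 7 keratins tested, these 3 were called lower in SCCVII macrophages against the HPV-positive and against the HPV-negative group, which share the SCCVII libraries, while 63.2% (32.2% higher, 30.9% lower) and 39.2% (18.7% higher, 20.5% lower) of all 14085 genes were called. Krt7, Krt19 and Krt6a passed the low-count filter through the MEER macrophages alone, so their calls, counts of calls and p-values are a description. Over HPV-positive macrophages the log2 changes were -4.73 ± 0.90 for Krt7 and -5.56 ± 1.06 for Krt19 (edgeR adjusted p = 0.0013 for both), and Krt6a was at least 30.6-fold lower (0.0004). Over HPV-negative macrophages they were -5.76 ± 0.90 and -4.60 ± 1.05 (edgeR adjusted p = 0.00093 and 0.007), and Krt6a was at least 24.7-fold lower (0.0013). Without HPV-negative macrophage library 4 these were -4.23 for Krt7 and -2.90 for Krt19, both still called, and without SCCVII macrophage library 1, which held most of the Krt19 counts of its group, Krt19 moved to -5.37 over HPV-negative and -6.33 over HPV-positive macrophages.

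Between HPV-positive and HPV-negative macrophages no keratin of the 7 tested was called (edgeR), none had an unadjusted p under 0.05 and DESeq2, which gave no adjusted p for Krt7, called 0, while 48.7% of all genes were called (22.8% higher, 25.9% lower). The count was 3 without HPV-negative library 4, 2 without HPV-positive library 2, 1 without HPV-positive library 1 or 3 or HPV-negative library 2, 1 without the low-count filter and 3 with all 23 libraries in one fit. The 3 called without HPV-negative library 4 included Krt19 with a log2 change of 2.66 and Krt18 with 1.26, in place of 0.96 ± 0.78 and 0.46 ± 0.40 with it, and Krt8 and Krt7 changed sign, to 0.58 and 0.49. Perp, Col1a1 and Krt8 were all highest of their group in that library. Cdh1 was not, at 16.8 TPM against 23.1 and 17.1 TPM in libraries 1 and 2. In the HPV-negative line Cdh1 stood at 0.570 to 1.09 TPM, so it cannot show whether line cells were present. The part of other cells in library 4 was not tested.

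Krt8 and Krt18 were lower in macrophages than in the line of the same tumour, in all 3 models. Krt8 in macrophages amounted to 4.86% to 6.62% of the mean line level in SCCVII, 3.16% to 3.92% in HPV-positive and 7.53% to 33.1% in HPV-negative tumours. For Krt18 these shares were 3.35% to 3.92% in SCCVII, 3.17% to 3.74% in HPV-positive and 5.45% to 20.5% in HPV-negative tumours. For Krt7 the share was 2.73% to 3.53% in HPV-positive and 4.71% to 34.3% in HPV-negative macrophages. For Krt19 it was 2.07% to 3.23% in HPV-positive and 1.13% to 9.87% in HPV-negative macrophages. In HPV-positive macrophages Krt6a stood at 3.60% to 5.22%, Krt20 at 0% to 7.85% and Krt10 at 8.53% to 22.9% of the line. Krt14 stood at 2.19% to 16.95% of the line in HPV-positive and 7.74% to 33.3% in HPV-negative macrophages, and Krt10 at 41.8% to 46.5% in SCCVII and 16.3% to 31.1% in HPV-negative macrophages. In HPV-negative macrophages without library 4, Krt8 was at 7.53% and 11.7% of its line level and Krt19 at 1.13% and 1.45%.

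Called keratins of macrophages over lines numbered 1 higher and 3 lower in SCCVII, 1 higher and 12 lower in HPV-positive and 3 higher and 9 lower in HPV-negative tumours, of 13 tested. Of all 15835 genes, 73% were called in SCCVII (37.4% higher, 35.5% lower), 78.8% in HPV-positive (39.6% higher, 39.1% lower) and 76.1% in HPV-negative tumours (38.7% higher, 37.4% lower). Krt13, Krt14, Krt15, Krt17, Krt20 and Krt76 did not pass the low-count filter in the fit of macrophages alone. Their calls and p-values below the lines, and the counts of lower keratins, are therefore a description. The log2 changes of Krt8 were -3.94 ± 0.42 in SCCVII, -4.63 ± 0.44 in HPV-positive and -2.40 ± 0.39 in HPV-negative tumours (edgeR adjusted p = 3.4e-07, 6e-08 and 4.2e-05). Those of Krt18 were -4.62 ± 0.36, -4.68 ± 0.36 and -3.05 ± 0.34 (edgeR adjusted p = 7.3e-09, 5.2e-09 and 5.2e-07). Those of Krt10 were smaller, at -1.07 ± 0.33, -2.67 ± 0.35 and -2.06 ± 0.33 (edgeR adjusted p = 0.008, 2.7e-06 and 2.6e-05). Krt7 and Krt19 changed by -4.89 ± 0.61 and -5.04 ± 0.64 in HPV-positive tumours (edgeR adjusted p = 1.8e-06 and 2.1e-06) and by -2.61 ± 0.55 and -4.46 ± 0.63 in HPV-negative ones (0.00041 and 8.6e-06). Without HPV-negative macrophage library 4 the HPV-negative changes were -3.25 for Krt8, -3.83 for Krt18, -4.11 for Krt7 and -6.14 for Krt19.

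Several stratified keratins were at or near 0 in HPV-positive macrophages. In HPV-positive macrophages Krt13, Krt17 and Krt76 had no count, at least 43.9-, 19.0- and 30.2-fold below the line (edgeR adjusted p = 0.0019, 3.2e-05 and 0.0033). Krt20 had 3 counts and Krt15 had 1 over the 3 libraries, against 105 and 217 in the line (edgeR adjusted p = 0.00069 and 0.0013). Krt6a had a log2 change of -4.30 ± 0.70 (edgeR adjusted p = 0.00011), which was -3.70 without HPV-positive line library 1. Krt14 had a log2 change of -3.05 ± 0.98 (edgeR adjusted p = 0.011), which was not called without the same line library (-1.30). In HPV-negative macrophages the changes were -4.31 ± 0.56 for Krt17, -4.23 ± 0.99 for Krt13, -6.07 ± 1.21 for Krt15 and -2.34 ± 0.85 for Krt14 (edgeR adjusted p = 1.6e-05, 0.0027, 0.0006 and 0.022). Without macrophage library 4, which held all 4 Krt15 counts of its group, they were -4.54, -5.68, -9.65 and -3.15. Without HPV-negative line library 3 the change of Krt15 was -5.01. The call of Krt14 was lost without HPV-negative macrophage library 1 (-1.99) or 2 (-2.13) or line library 1 (-2.14).

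**Figure D3:**
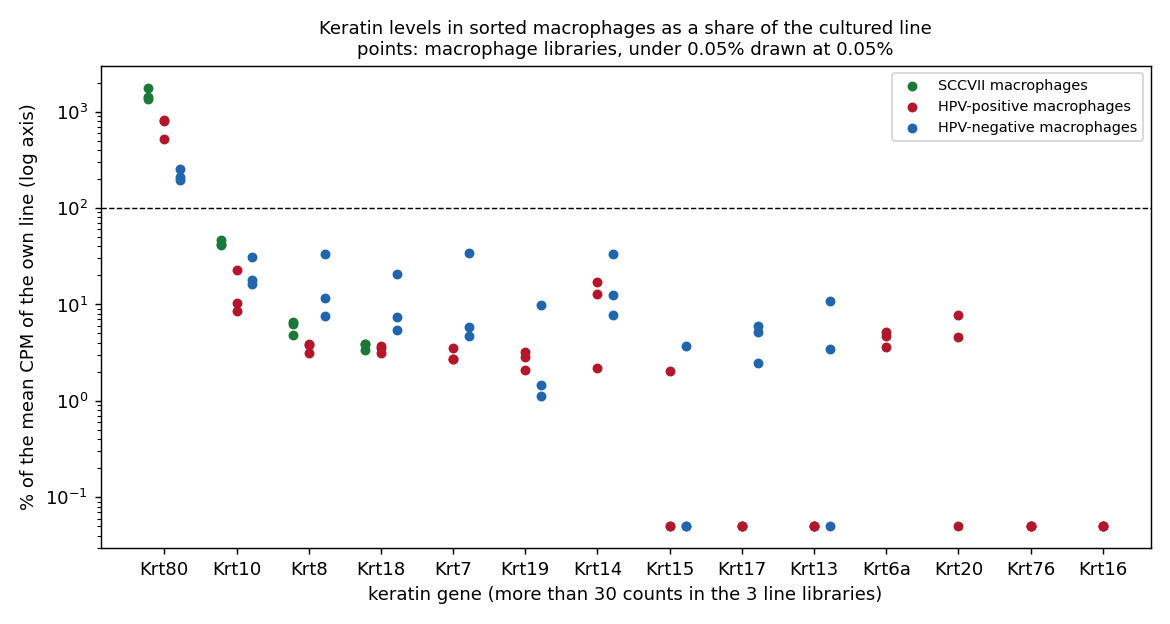
Each point is a macrophage library, with its keratin level as a percentage of the mean CPM of the cultured line of the same tumour on a log axis. Keratins drawn had more than 30 counts over the 3 line libraries, Krt83 is left out, and values under 0.05% are drawn at 0.05%. Krt80 is the only keratin plotted above the dashed 100% line in all 9 libraries.

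Krt80 ran against this pattern. It stood at 33.1, 26.7 and 25.0 CPM in SCCVII macrophages, 36.2, 23.5 and 36.9 CPM in HPV-positive macrophages and 29.0, 22.4 and 24.1 CPM in HPV-negative macrophages, above all 9 line libraries, which held 1.68 to 17.3 CPM. In TPM it made up 29.97% to 40.6% of the keratin sum in SCCVII macrophages. Its share was 21.8% to 32.9% for the HPV-positive and 13.9% to 39.5% for the HPV-negative group. The log2 changes over the own line were 4.06 ± 0.29 in SCCVII, 3.00 ± 0.26 in HPV-positive and 1.26 ± 0.25 in HPV-negative tumours (edgeR adjusted p = 2.1e-09, 2.6e-08 and 0.00022). Between macrophage groups it did not pass the test, with log2 changes of -0.23 ± 0.18 (SCCVII over HPV-positive), 0.15 ± 0.18 (SCCVII over HPV-negative) and 0.38 ± 0.18 (HPV-positive over HPV-negative; edgeR adjusted p = 0.29, 0.56 and 0.11). Without HPV-positive macrophage library 2 the changes of -0.41 over HPV-positive and 0.56 of HPV-positive over HPV-negative macrophages were called. No 75-base window of Krt80 transcripts occurs in another gene.

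Krt20 and Krt6a were higher in HPV-negative macrophages than in their line, unlike in the HPV-positive pair. Krt20 stood at 0.486, 0.343 and 0.895 CPM in HPV-negative macrophages and at 0.0988, 0 and 0.0980 CPM in the HPV-negative line, with no overlap (log2 change 3.17 ± 0.78, edgeR adjusted p = 0.0026). Krt6a had a log2 change of 2.28 ± 0.84 (edgeR adjusted p = 0.026) with overlapping groups, since macrophage library 2, at 0.311 CPM, lay below line library 1, at 0.329 CPM. That call was lost in the fit of all 23 libraries (2.15), without macrophage library 1 (1.76) and without line library 2 (2.05) or 3 (2.04), and the change was 2.87 without line library 1. Krt76 did not pass the test, at 0.0972, 0.0311 and 0.567 CPM in HPV-negative macrophages and 0, 0 and 0.0980 CPM in the line.

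**Figure D4:**
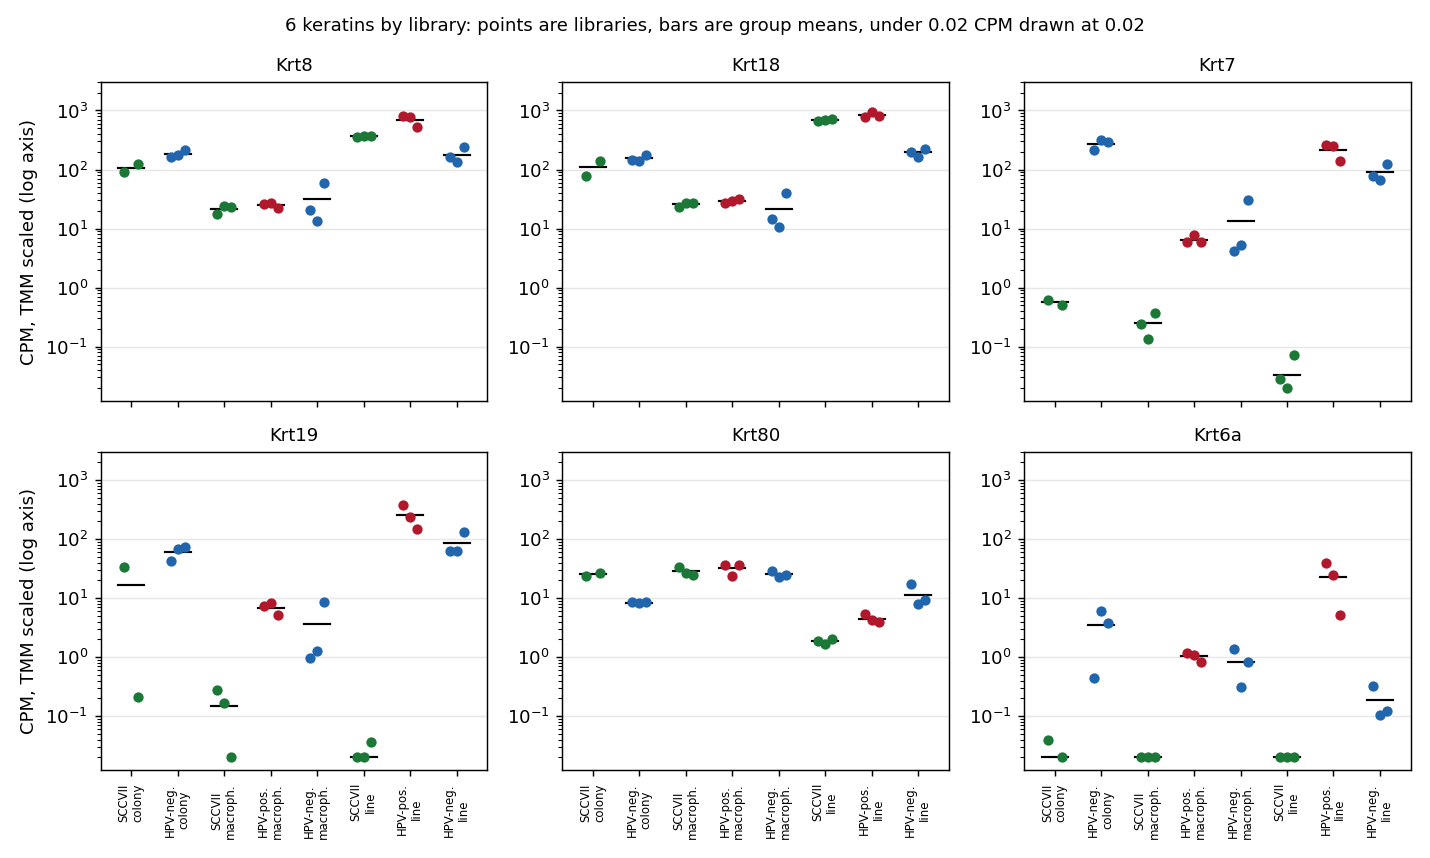
CPM of Krt8, Krt18, Krt7, Krt19, Krt80 and Krt6a in each library (points, log axis) by group, with bars for group means and values under 0.02 CPM drawn at 0.02. Krt80 is lowest in the SCCVII line, at 1.68 to 2.04 CPM, while the other panels are highest in HPV-positive line or HPV-negative colony libraries.

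Whether the change between tumours differed between macrophages and lines was tested as a difference of log2 changes in a fit of both kinds. For HPV-positive against HPV-negative, 1 keratin of 13 was called with a positive and 6 with a negative difference, with 41% of all genes called (19.4% positive, 21.6% negative). Krt18 had a difference of -1.63 ± 0.45 and Krt8 of -2.23 ± 0.54 (edgeR adjusted p = 0.0079 and 0.0035), which were -0.88 and -1.41 without HPV-negative macrophage library 4. Krt80 had one of 1.74 ± 0.35 (edgeR adjusted p = 0.00087), Krt6a of -6.58 ± 1.07 (0.00039) and Krt20 of -7.44 ± 1.17 (0.00031). For SCCVII against HPV-negative, 4 of 13 were called with a positive and 2 with a negative difference, with 43.6% of all genes called (19.8% positive, 23.9% negative). Krt80 had a difference of 2.80 ± 0.37 and Krt18 of -1.57 ± 0.45 (edgeR adjusted p = 1.6e-05 and 0.0095). The count of calls was 2 to 5 when any 1 library was left out, and Krt18 was -0.77 without HPV-negative macrophage library 4.

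The colony libraries, labelled as grown from sorted macrophages, carried more keratin than the macrophages. The keratin sum was 221 and 305 TPM in SCCVII colonies and 702, 1041 and 1072 TPM in HPV-negative colonies, against 75.4 to 77.7 TPM in SCCVII macrophages and 49.1 to 168 TPM in HPV-negative macrophages. In HPV-negative colonies the sum lay within or above the 544 to 964 TPM of the HPV-negative line. The HPV-negative colony libraries came in a separate deposited table, so the table cannot be told apart from the group.

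**Figure D5:**
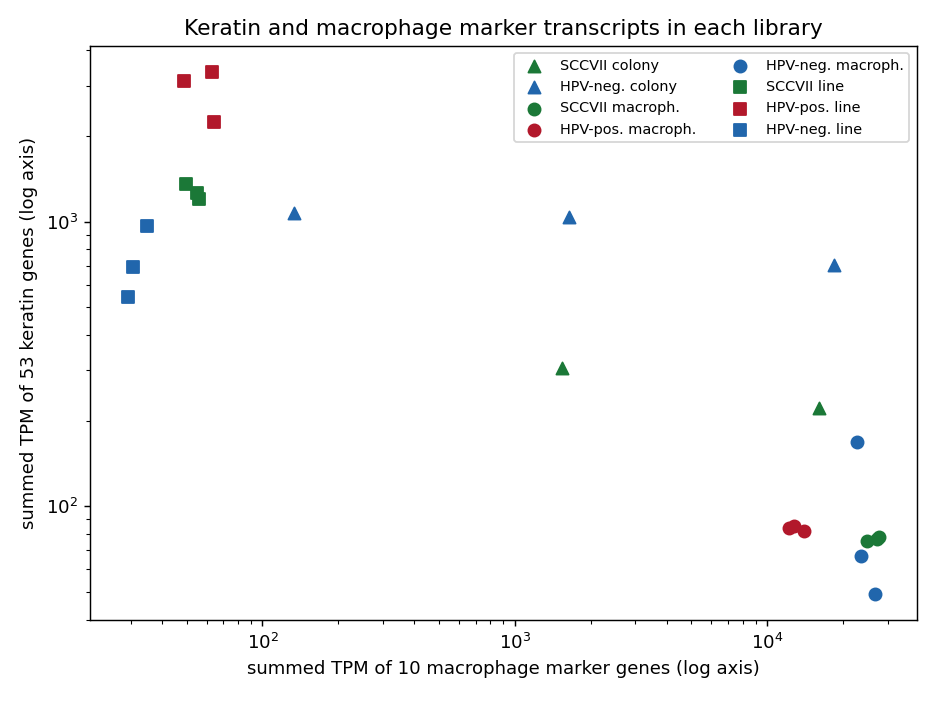
Summed TPM of the 53 keratins (y, log axis) against summed TPM of 10 macrophage marker genes (x, log axis) in the 23 libraries, with shapes for sample kind and colours for tumour model. The line libraries lie at the upper left, the macrophages at the lower right, and the 3 HPV-negative colonies spread over the x axis at 702 to 1072 keratin TPM.

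In HPV-negative colonies over macrophages, 15 of 19 tested keratins were higher and 2 lower, with 62.7% of all 16238 genes called (34% higher, 28.7% lower). Krt5, Krt79, Krt83, Krt87, Krt88 and Krt222 passed the low-count filter only in fits with colonies, so these counts are a description. The calls and adjusted p-values of these genes are likewise a description. Of 8 fibroblast markers, 4 were higher and 1 lower in the same comparison. Epithelial markers moved too, with 4 of 7 tested higher and 1 lower, and of 10 macrophage markers none was higher and 4 were lower. The part of these cell types in the keratin changes was not tested. Krt8 stood at 165, 179 and 213 CPM in HPV-negative colonies and Krt18 at 142, 141 and 178 CPM, above the highest macrophage library in each case. The log2 changes were 2.56 ± 0.48 and 2.81 ± 0.47 (edgeR adjusted p = 0.0019 and 0.0011), and 3.48 and 3.66 without macrophage library 4. Krt7 stood at 213, 322 and 292 CPM in HPV-negative colonies, the highest levels of this gene in the series but for 2 HPV-positive line libraries above colony library 1, a log2 change of 4.34 ± 0.75 (edgeR adjusted p = 0.0013; 5.91 without macrophage library 4). Krt19 stood at 42.9, 67.3 and 74.1 CPM in HPV-negative colonies, a log2 change of 4.07 ± 1.44 (edgeR adjusted p = 0.034; 5.82 without macrophage library 4). The Krt19 call was lost without colony library 2 or 3 or macrophage library 1 or 2. Csf1r stood at 288, 2.43 and 0.310 TPM in the same 3 colonies.

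The same colonies held the basal and stratified keratins. Krt14 stood at 5.09, 7.24 and 9.41 CPM in HPV-negative colonies, Krt15 at 2.25, 8.43 and 11.7 CPM, Krt17 at 2.25, 4.55 and 2.53 CPM and Krt13 at 2.16, 4.56 and 4.55 CPM, all above the highest macrophage library. Their log2 changes over macrophages were 3.97 ± 0.65, 7.34 ± 1.23, 4.70 ± 0.61 and 4.01 ± 1.07 (edgeR adjusted p = 0.0012, 0.0031, 0.00045 and 0.018). Without macrophage library 4 those of Krt14, Krt15 and Krt13 were 4.85, 10.96 and 5.51, and Krt13 was not called without macrophage library 1. Krt5 stood at 0.335, 2.06 and 1.72 CPM in HPV-negative colonies and had no count in the macrophages, at least 44.2-fold higher (edgeR adjusted p = 0.0032). Krt5 passed the filter only in fits with colonies, and Krt13, Krt14, Krt15, Krt17 and Krt76 did not pass it in the fit of macrophages alone. The calls and p-values of these 6 genes over macrophages are therefore a description. Krt76 stood at 1.00, 8.98 and 4.55 CPM in the colonies, a log2 change of 4.30 ± 1.12 (edgeR adjusted p = 0.013; 6.18 without macrophage library 4 and 3.56 without colony library 2). Colony library 1 was the lowest of the 3 for each of these 6 genes. It was also the library with the most macrophage marker transcripts, and the part of cell mixture in this order was not tested.

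Of the 15 hair shaft keratins, Krt83 and Krt87 were called higher in the same colonies than in macrophages. Like Krt88 and Krt222 below, both passed the filter only in fits with colonies, so their calls and p-values are a description. Krt83 stood at 6.33, 52.7 and 21.7 CPM in HPV-negative colonies, at 0.0324, 0 and 0.0895 CPM in the macrophages and at 0, 0.669 and 2.25 CPM in the line. Its log2 change over macrophages was 9.18 ± 1.10 (edgeR adjusted p = 0.00021; 8.31 without colony library 2 and 10.44 without macrophage library 4), and 11.9% of its windows occur in Krt81, Krt86 or Krt87. Krt87, another hair keratin, stood at 0.534, 0.513 and 0.586 CPM in HPV-negative colonies, a log2 change of 2.08 ± 0.53 over macrophages (edgeR adjusted p = 0.0094). Of the keratins in other classes, Krt88 reached 0.176 to 0.636 CPM in HPV-negative colonies and had no count in the macrophages, at least 12.3-fold higher (edgeR adjusted p = 0.013, not called by DESeq2). Krt222 reached 0.146 to 0.727 CPM in HPV-negative colonies, with 2 counts over the macrophage libraries (edgeR adjusted p = 0.0051). Krt33a reached 10 counts in an HPV-negative line library, and Krt27, of the inner root sheath, 15 counts in an HPV-positive line library. Krt10 was higher at 2.43, 3.07 and 2.62 CPM in HPV-negative colonies (log2 change 1.83 ± 0.37, edgeR adjusted p = 0.0025).

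Krt80 and Krt20 were the keratins that fell in HPV-negative colonies. Krt80 stood at 8.42, 8.13 and 8.54 CPM in HPV-negative colonies, below all 3 macrophage libraries (log2 change -1.60 ± 0.16, edgeR adjusted p = 9.4e-05). Krt20 stood at 0.127, 0.146 and 0.0905 CPM in HPV-negative colonies, also below all macrophages (log2 change -2.21 ± 0.59, edgeR adjusted p = 0.014), and its call was lost without colony library 3 (-1.98). Krt20 did not pass the filter in the fit of colonies with lines, so its call and p-value are a description. Krt6a, at 0.449, 6.07 and 3.83 CPM in HPV-negative colonies, did not pass the test (log2 change 1.99 ± 0.95, edgeR adjusted p = 0.1).

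Compared with the HPV-negative line, a comparison chosen after the colony levels were seen, 9 of 18 tested keratins were higher in HPV-negative colonies and none lower, with 53.2% of all 15995 genes called (28.1% higher, 25.2% lower). Of the 9, Krt5, Krt83, Krt87, Krt88 and Krt222 passed the low-count filter only in fits with colonies. Krt6a and Krt76 passed it in this fit through the HPV-negative colonies alone. The count of 9 and the p-values of these genes are therefore a description. The median log2 change over all genes was 0.08. Fibroblast markers moved too, with 5 of 7 tested higher and a median log2 change of 3.62. Of 7 epithelial markers tested, 3 were higher and 1 lower, and of 10 macrophage markers 9 were higher and none lower. The part of these cell types in the keratin changes was not tested. Krt8 and Krt18 did not pass the test, with log2 changes of 0.03 ± 0.21 and -0.37 ± 0.22 (edgeR adjusted p = 0.91 and 0.18), nor did Krt19, Krt17, Krt13, Krt15, Krt10 and Krt80, at -0.52 ± 0.99, 0.27 ± 0.45, -0.35 ± 0.50, 1.15 ± 0.82, -0.37 ± 0.33 and -0.48 ± 0.28. Krt7 was higher by 1.59 ± 0.27 and Krt14 by 1.50 ± 0.36 (edgeR adjusted p = 0.0012 and 0.012), and Krt14 was not called in the fit of all 23 libraries (1.53). Krt5 was higher by a log2 of 5.03 ± 1.03, Krt76 by 6.89 ± 1.23, Krt6a by 4.13 ± 1.01 and Krt83 by 4.72 ± 1.34 (edgeR adjusted p = 0.0064, 0.0026, 0.01 and 0.019). Without colony library 2 these were 6.10 for Krt76, 3.46 for Krt6a and 3.80 for Krt83, which was then not called, and without HPV-negative line library 3 Krt76 was 10.40 and Krt83 6.27. Without line library 2, Krt83 was not called (4.54), and without line library 1 Krt6a was 4.79. Krt87 (2.76 ± 0.60) and Krt88 (2.72 ± 0.94) were called too (edgeR adjusted p = 0.0079 and 0.046), but neither by DESeq2, and Krt88 was also lost without any 1 of the line libraries. Krt222 was called against 2 counts in the line (edgeR adjusted p = 0.0065).

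The envelope genes of the cornifying cell, which accompany stratified keratins, were read from a list of 33, of which 18 were tested in the fits with colonies. The fits without colonies tested 8 (lines) and 9 (macrophages with lines) of them, so many passed the low-count filter only through the colonies, and no count or median over the 18 is given. Sprr1a, a small proline-rich envelope precursor, stood at 356 ± 20.3 CPM in HPV-negative colonies and 1.72 ± 0.585 CPM in the HPV-negative line (SD, n = 3 each). In SCCVII colonies it stood at 76.3 ± 5.33 CPM (SD, n = 2), against 0.453 ± 0.165 CPM in the SCCVII line (SD, n = 3). Trp63, which encodes the basal epithelial factor p63, was at 10.1, 22.6 and 28.8 TPM in HPV-negative colonies, against at most 3.21 TPM in the line.

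In SCCVII colonies 5 of 19 tested keratins were higher than in SCCVII macrophages and none lower, with 51.9% of all genes called (29.7% higher, 22.3% lower). Of the 5, Krt79 passed the filter only in fits with colonies, so the count of 5 and the p-value of Krt79 are a description. Of 8 fibroblast markers, 7 were higher and 1 lower. Of 7 epithelial markers tested, 3 were higher and 1 lower, and of 10 macrophage markers none was higher and 2 were lower. The part of these cell types was not tested. The 2 colony libraries differed widely for some keratins. Krt8 stood at 91.7 and 123 CPM and Krt18 at 76.5 and 141 CPM in SCCVII colonies, with log2 changes over macrophages of 2.31 ± 0.51 and 2.08 ± 0.49 (edgeR adjusted p = 0.0046 and 0.0066). The call of Krt18 was lost without SCCVII colony library 2 (1.56). Krt10 stood at 1.95 and 3.93 CPM in SCCVII colonies (log2 change 2.05 ± 0.40, edgeR adjusted p = 0.0024; 1.44 without library 2). Krt19 stood at 33.7 CPM in SCCVII colony library 1 and 0.210 CPM in library 2, of which library 2 lay within the 0 to 0.274 CPM of SCCVII macrophages. Its log2 change of 6.80 ± 1.83 (edgeR adjusted p = 0.013) was not called without library 1, at 0.52, and was 7.79 without library 2 and 7.58 without SCCVII macrophage library 1. Krt79, a keratin of the upper hair follicle and sebaceous duct, stood at 9.22 and 0.390 CPM in SCCVII colonies and had no count in SCCVII macrophages, at least 142-fold higher (edgeR adjusted p = 0.016). That call was lost without library 1 and under DESeq2.

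Krt78 and Krt1, which did not pass the filter, followed the same library, with 279 and 66 counts in SCCVII colony library 1 and 5 and 2 counts in library 2. Library 1 also held more of the macrophage markers, with Csf1r at 30.5 TPM against 3.40 TPM in library 2, and Perp at 10.6 against 0.590 TPM. Krt80 stood at 23.5 and 26.9 CPM in SCCVII colonies, near its macrophage level (log2 change -0.17 ± 0.17, edgeR adjusted p = 0.43). Krt13, Krt14, Krt15 and Krt17 had no count in SCCVII colonies.

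Against the SCCVII line, also chosen after the levels were seen, 4 of 18 tested keratins were higher in SCCVII colonies and 2 lower, with 46.9% of all genes called (27.1% higher, 19.7% lower), and a median log2 change of 0.15 over all genes. Of the 4, Krt79 passed the filter only in fits with colonies, so the count of 4 and the p-value of Krt79 are a description. Of 7 fibroblast markers tested, 4 were higher and none lower. Of 7 epithelial markers tested, 6 were higher and none lower, and of 10 macrophage markers 5 were higher and none lower. The part of these cell types was not tested. Krt8 and Krt18, the pair that made up nearly all line keratin, were lower, with log2 changes of -1.67 ± 0.25 and -2.57 ± 0.27 (edgeR adjusted p = 0.00061 and 0.00012), and Krt18 was -3.17 without library 2. Their levels were 25.1% and 33.7% of the line for Krt8 and 11.0% and 20.4% for Krt18. Krt80 was higher by 3.84 ± 0.33 (edgeR adjusted p = 4.4e-05). Krt7, at 0.625 and 0.510 CPM in SCCVII colonies against 3 counts over the line libraries, and Krt19, against 1 count, were called higher (edgeR adjusted p = 0.001 and 0.0024), also without SCCVII colony library 1, and Krt79 was at least 156-fold higher (0.011). The Krt79 call was lost without library 1 and under DESeq2.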

How the data were processed

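RNA was sequenced from 23 libraries in 8 groups with a stranded mRNA kit, per the labels' protocols. The submitters' processing notes name FastQC, STAR 2.5.3a, RSEM 1.3.0, MultiQC and mm10/GRCm38, without stating their order, strand setting or annotation release. The authors deposited expected counts per gene, as RSEM estimates them, per the file headers. The authors deposited TPM values beside them, scaled for gene length, per the file headers. No column came from another series (0).

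Of 36793 genes, 35243 (95.8%) matched a GENCODE M21 symbol. Expected counts were rounded to whole numbers (13.1% were not whole, largest shift 0.5), filtered (filterByExpr, minimum count 10, total 15) and tested with edgeR 4.0.16 in R 4.3.3 (TMM, quasi-likelihood, prior count 0.125, Benjamini-Hochberg 0.05) for lines, macrophages, macrophages with lines, colonies with macrophages and colonies with lines. CPM used TMM over 23 libraries (17014 genes). Colony against line comparisons were added after colony keratin levels had been seen. Scripts were tested on simulated data. Alternatives were DESeq2 1.42.0, its size factors, no low-count filter, all 23 libraries in one fit, a replicate block and leaving out each library. Folds against groups without counts are bounds at 3 counts summed over the group. No replicate pair was alike within sampling noise, the lowest chi-square per gene being 3.23. Depth was 26848759 to 47609481 counts per library, and reads had no molecular identifiers, so precision from counts covers counting error only. HPV-negative colonies came in a separate table. Named keratins are those past the low-count filter of the line fit, those called in another fit, and hair or root sheath keratins with at least 10 counts in a library. Of each related list up to 2 rises and 2 falls between lines are named. Krt1, Krt6b, Krt16, Krt78, Vim, Sprr1a and the values of Dsp in the MEER lines were chosen after their values were seen. Members and gene lists were chosen with earlier results of these data known.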

Additional observations from a re-analysis of the deposited data

Results flagged for a closer look

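The changes between tumours differed between macrophages and lines for 7 of the 13 keratins tested with HPV status. The test was of the difference itself (edgeR quasi-likelihood, Benjamini-Hochberg over all genes), and it called 41% of all 15835 genes. The differences of log2 changes were -2.23 for Krt8 (adjusted p = 0.0035), -1.63 for Krt18 (0.0079), -2.28 for Krt7 (0.025), -7.44 for Krt20 (0.00031), -6.58 for Krt6a (0.00039), -10.96 for Krt76 (0.0061) and 1.74 for Krt80 (0.00087). In HPV-positive macrophages Krt20 had 3 counts and Krt76 had none, so those 2 sizes depend on the prior count. Krt76 passed the low-count filter through the HPV-positive line alone, so its call and p-value are a description. Without HPV-negative macrophage library 4, Krt8 was -1.41, Krt18 -0.88 and Krt76 -9.17, and Krt7 was not called (-0.81). Krt7 was also not called without 5 other libraries, at -2.10 to -2.22. Krt20 was -8.27 without HPV-positive macrophage library 3, and Krt6a was -7.17 without HPV-negative line library 1 and -5.98 without HPV-positive line library 1. Krt76 was -14.21 without HPV-negative line library 3 and -10.14 without HPV-positive line library 1.

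Between SCCVII and HPV-negative tumours 6 of the 13 keratins tested were called, with 43.6% of all genes called. The difference was 2.80 for Krt80 (edgeR adjusted p = 1.6e-05), -1.57 for Krt18 (0.0095), -1.54 for Krt8 (0.029), 7.97 for Krt19 (0.043), 5.60 for Krt7 (0.045) and 6.29 for Krt17 (0.044). The SCCVII line held 1 count of Krt19, 3 of Krt7 and none of Krt17, so those 3 sizes depend on the prior count. Krt17 did not pass the low-count filter in the fit of macrophages alone, so its call and p-value are a description. Without HPV-negative macrophage library 4 Krt18 was -0.77, Krt19 9.67 and Krt7 7.12, and Krt8 was not called (-0.67). Krt8 was also not called without HPV-negative line library 1 (-1.46) or 2 (-1.38), SCCVII macrophage library 1 (-1.42) or SCCVII line library 3 (-1.53). Krt19 was not called without 6 libraries (7.19 to 9.76), Krt7 without 8 (5.03 to 6.51) and Krt17 without 7 (4.31 to 6.51). What underlies the differences was not tested.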

How the results depend on the processing

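Of 169 log2 changes, all kept direction and side of the threshold under DESeq2's size factors in edgeR. Under DESeq2 itself, which gave no adjusted p for Krt7 in the 3 macrophage comparisons, 7 gained and 5 lost a call, without the low-count filter 2 and 2, with all 23 libraries in one fit 3 and 6, and with the replicate block 8 and 8. The count of called keratins moved by over 1.5 times without the low-count filter (16 for the SCCVII over the HPV-negative line, 6 for SCCVII over HPV-negative and 1 for HPV-positive over HPV-negative macrophages), with all 23 libraries in one fit (7 and 3 for the same macrophage comparisons) and with the replicate block (3 for HPV-positive over HPV-negative macrophages). Same-numbered samples did not deviate together throughout (correlations -0.25 to 0.23), so the numbers were not taken as pairs. Under the block these changed sign: Krt10 (0.34) and Krt8 (0.36) in SCCVII over HPV-negative macrophages, Krt7 (0.50) and Krt8 (0.61) in HPV-positive over HPV-negative macrophages, and Krt19 (1.18), Krt14 (0.97) and Krt15 (2.75) in the HPV-status difference between macrophages and lines. None of these was called before.

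With each library left out in turn, the called keratins ranged from 0 to 3 for HPV-positive over HPV-negative macrophages, 3 to 6 for SCCVII colonies over macrophages and 2 to 5 for the SCCVII difference between macrophages and lines. The changes that reversed ranged, in HPV-positive over HPV-negative lines, from -2.27 to 0.041 (Krt14) and -1.56 to 0.43 (Krt15). In SCCVII over HPV-negative macrophages they ranged from -0.28 to 0.26 (Krt10), -0.11 to 1.03 (Krt18) and -0.92 to 0.33 (Krt8). In HPV-positive over HPV-negative macrophages they ranged from -1.45 to 0.49 (Krt7), -0.65 to 0.58 (Krt8) and -0.061 to 0.86 (Krt6a). In the HPV-status difference they ranged from -1.05 to 1.07 (Krt19), -1.24 to 1.04 (Krt14) and -2.96 to 2.90 (Krt15). In HPV-negative colonies over their line they ranged from -0.079 to 0.68 (Krt17), -0.56 to 0.24 (Krt13) and -0.11 to 0.34 (Krt8). The cause was not tested. Keratins under the low-count filter were not tested in the reported fits.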
